A study of Mus musculus with 8 samples.

Results

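The opioid system of the mouse spinal dorsal horn was examined through its 4 receptor genes, Oprm1, Oprd1, Oprk1 and Oprl1, and the 4 genes that encode the precursors of its peptides, Penk, Pdyn, Pnoc and Pomc. The members were taken by gene symbol, and all 8 were found among the 49585 gene identifiers of the data. The libraries were made from polyadenylated RNA of the dorsal horn, lumbar segments 4 to 6, of adult C57BL/6J mice. There were 4 libraries of the genotype miR-96 knock-out and 4 of the wild type, and the groups differed in no other label. The labels do not say how the knock-out allele was made, which other sequence it removes, or the sex of the mice. The study's title concerns allodynia, pain evoked by harmless touch, and sodium channels held down by miR-96 in the spinal cord.

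Opioid receptors are receptors of the plasma membrane that act through Gi/o proteins, which open inwardly rectifying potassium channels, close presynaptic calcium channels and inhibit adenylyl cyclase. Their peptides are cut out of larger precursors at pairs of basic residues: enkephalins come mainly from Penk, dynorphins from Pdyn, β-endorphin from Pomc and nociceptin from Pnoc. In the superficial dorsal horn, enkephalin and dynorphin are made by local interneurons, and μ receptors lie on the terminals of sensory afferents as well as on dorsal horn neurons, where they dampen the transmission of pain signals. Transcripts of the cord come mainly from cells whose bodies lie there, while receptor on afferent terminals is made in sensory ganglia.

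The deleted microRNA shares a cluster on chromosome 6 with miR-182 and miR-183. The mature sequences (RefSeq, GRCm38.p6) are printed because the seed, positions 2 to 8 in capitals, sets which transcripts a microRNA can pair with. They lie on the minus strand at chr6:30169506-30169528, chr6:30165962-30165986 and chr6:30169711-30169732, in the order printed.
mmu-miR-96-5p: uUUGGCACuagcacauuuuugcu
mmu-miR-182-5p: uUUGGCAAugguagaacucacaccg
mmu-miR-183-5p: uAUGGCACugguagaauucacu
The 3 seeds all differ, but those of miR-96 and miR-182 are alike at positions 2 to 7 and differ only at position 8. A match to the miR-96 seed is GTGCCAA in the DNA of a transcript's strand, and TGCCAAA is the 7-base form that ends in A; the motifs overlap. Neither stood in the longest annotated 3′ untranslated region of any of the 8 opioid genes, which ran from 174 nt in Pomc to 3347 nt in Oprk1. Over 13046 genes, GTGCCAA was present in 10.2% of such regions, TGCCAAA in 14.8% and either in 20.5%. Among regions of like length the share with either match was 37.2% for the length of Oprk1, 33.1% for that of Oprd1 (2801 nt) and 15% for that of Oprm1 (1037 nt), against 3.09% for that of Pomc. The absence says only that these letters are not in the annotated region. The form that ends in A pairs with positions 2 to 7 and is a match to miR-182 as well.

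The precursor genes carry the peptides as short runs of codons, each preceded by codons for basic residues. Examples are printed from the reference coding sequences (GENCODE M21, GRCm38), with the 5 codons of the opioid core in capitals and 2 codons on each side in lower case, because they show what each precursor transcript can yield.
Penk copy 1: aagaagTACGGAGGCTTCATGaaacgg
Penk copy 6: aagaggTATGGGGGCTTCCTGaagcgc
Pdyn copy 1: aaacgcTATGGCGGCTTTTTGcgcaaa
Pdyn copy 2: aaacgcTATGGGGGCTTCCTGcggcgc
Pomc copy 1: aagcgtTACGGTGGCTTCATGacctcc
Pnoc copy 1: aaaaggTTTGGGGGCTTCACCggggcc
The first lies at chr4:4134328-4134354 (minus strand), the second at chr4:4133935-4133961 (minus strand), the third at chr2:129688232-129688258 (minus strand) and the fourth at chr2:129688124-129688150 (minus strand). The Pomc run lies at chr12:3960367-3960393 (plus strand) and the Pnoc run at chr14:65404872-65404898 (minus strand). Penk holds 7 such runs, 6 ending in the methionine codon ATG and 1 in a leucine codon. Pdyn holds 3, all ending in a leucine codon, Pomc holds 1 ending in ATG, and Pnoc holds 1 start of nociceptin, a related but different run. All 12 follow directly on 2 codons for basic residues; in Penk copies 4 and 7, Pomc and Pnoc no such pair follows directly. A Penk transcript thus encodes more opioid cores than a transcript of any other precursor.

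The values are FPKM as deposited, fragments per kilobase of transcript scaled to the mapped fragments of the library, which allow levels of different genes to be compared per unit of transcript length. Over the 8 libraries, 24091 to 25560 genes had a value above 0, and the estimated depth was 31900000 to 43100000 fragments per library. Mir96 itself (chr6:30169446-30169551, minus strand) had a listed value of 0 FPKM throughout, and so had both other microRNA genes of the cluster; since mature microRNAs are not captured as polyadenylated RNA, this checks nothing. The library wild type replicate 1 stood apart: relative to the median of the other 7 libraries, protein-coding genes with a longest transcript under 1500 nt were higher in it by a median log2 difference of 0.503, and genes of 6000 nt or more were lower, with a median of -0.433. The same medians in the other 7 libraries lay between -0.172 and 0.143. Blood cell markers summed to 199 FPKM in this library, against 17.8 to 39.3 FPKM in knock-out libraries and 5.96 to 34.4 FPKM in the other wild-type libraries, and oligodendrocyte markers to 14815 FPKM, against 9823 to 10873 FPKM in knock-out libraries and 9150 to 11098 FPKM in the other wild-type libraries; their part in the results was not tested. Neuronal markers (5 genes, among them Rbfox3 and Snap25) summed to 1276 to 1419 FPKM in knock-out libraries and 1278 to 1567 FPKM in wild-type libraries, markers of inhibitory neurons to 368 to 396 FPKM in knock-out and 293 to 428 FPKM in wild type, and markers of excitatory dorsal horn neurons to 233 to 273 FPKM in knock-out and 230 to 284 FPKM in wild type. Markers of sensory ganglion neurons (Scn10a, Avil, Trpv1, Mrgprd and Prdm12) summed to 0.541 to 2.28 FPKM in knock-out libraries and 0.441 to 0.75 FPKM in wild-type libraries. Liver markers (Alb, Hp, Hpx, Apoa1 and Serpina1e) summed to 24.8 to 50.8 FPKM in knock-out libraries, against 1.29 to 10.2 FPKM in wild-type libraries, and their part in the results was not tested.

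All 8 opioid transcripts were detected in every library, and their levels spanned a wide range. Penk was by far the most abundant, with a mean of 173 FPKM over the 8 libraries, followed by Oprl1 with 37.2 FPKM and Pdyn with 27.8 FPKM. Pnoc averaged 8.52 FPKM, Oprk1 4.05 FPKM, Oprd1 3.27 FPKM, Oprm1 3.09 FPKM and Pomc 2.2 FPKM. The nociceptin receptor transcript was thus the most abundant receptor transcript, and the classical receptors lay near the bottom of the order. Each of the upper 4 genes exceeded the next in the order in 8 of 8 libraries, although Oprl1 over Pdyn was as low as 1.02 in 1 library. The lower 4 were not separated in that way. Oprk1 exceeded Oprd1 in 6 of 8 libraries, Oprd1 exceeded Oprm1 in 6 of 8, and Oprm1 exceeded Pomc in 6 of 8. In bulk tissue, fewer cells of a type and less RNA per cell cannot be told apart.

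**Figure D1:**
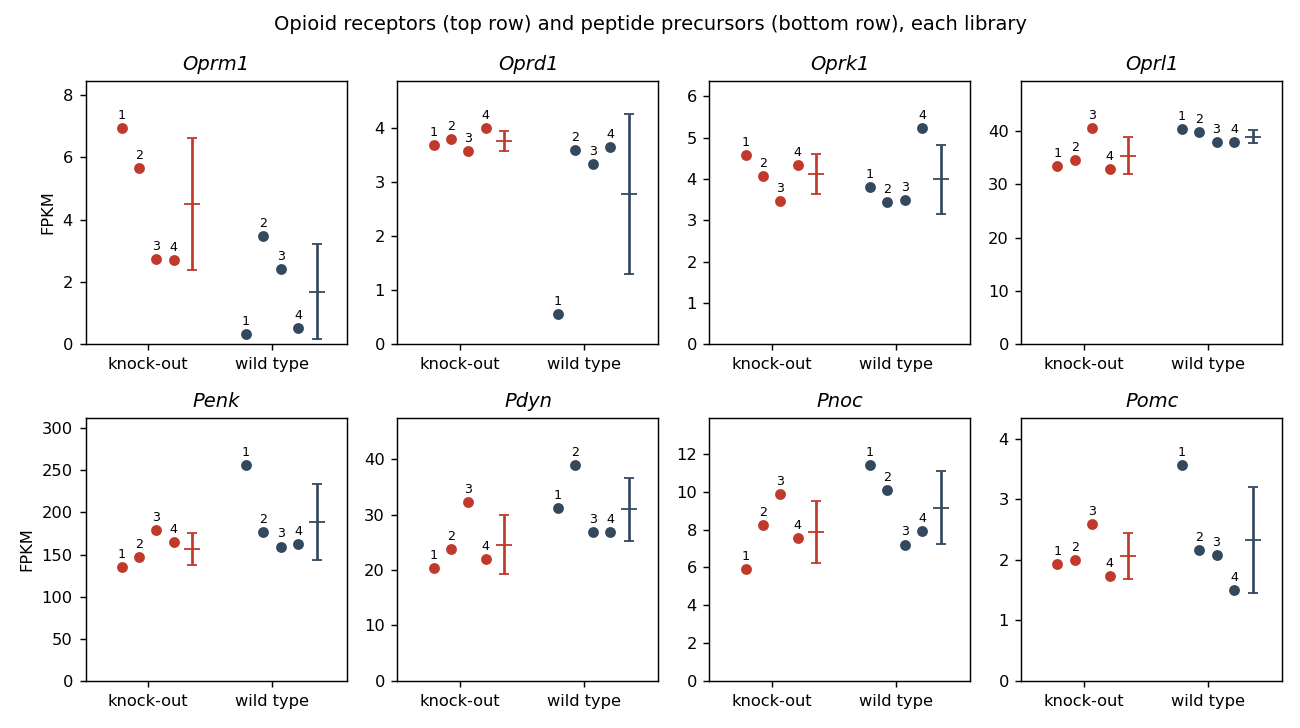
FPKM of the opioid receptor genes (top row) and the precursor genes (bottom row) in each knock-out library (left in each panel) and each wild-type library (right), numbered by replicate, with the group mean and SD beside the points. The groups overlap for all 8 genes, and the low points of wild type replicate 1 for Oprd1 (0.565 FPKM) and Oprm1 (0.313 FPKM) and its high points for Penk (256 FPKM) and Pomc (3.57 FPKM) stand out.

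The comparison of genotypes asked whether loss of miR-96 goes with a different level of any opioid receptor or precursor transcript. The 4 precursors and Oprl1 had lower means in knock-out libraries, and Oprm1, Oprd1 and Oprk1 had higher means, but none of the 8 passed the test across all genes. With limma and Benjamini-Hochberg adjustment over 15061 genes, 0 of 8 members and 0% of all tested genes had an adjusted p under 0.05; the lowest adjusted p of any gene was 0.159. At an unadjusted limma p under 0.05, 1 of 8 members was called, Oprm1, higher in knock-out, beside 5.52% of all tested genes (3.69% higher and 1.83% lower in knock-out). The knock-out mean was higher for 3 of 8 members and lower for 5 of 8, where 53.1% of tested genes had a higher and 46.9% a lower mean. The median log2 fold change of the members was -0.12, and that of all tested genes was 0.014. Without wild type replicate 1 the members' median was -0.029. The single unadjusted call rested on several libraries: 0 of 8 members had it without knock-out replicate 1, knock-out replicate 2, wild type replicate 1 or wild type replicate 4, and 3 of 8 (Oprm1, Oprl1 and Pdyn) without knock-out replicate 3. Over all genes such calls numbered 328 of 15044, 354 of 15059 and 1439 of 15060 without knock-out replicates 1, 2 and 3, respectively. They numbered 574 of 15059 and 3154 of 15097 without wild-type replicates 1 and 4, respectively. The libraries of the groups did not overlap for 3.03% of tested genes and for 0 of the 8 members. Fold changes are knock-out minus wild type on the log2(FPKM + 1) scale, which understates the change of low genes, and the p-values reflect how far these libraries spread; the labels tie no library to a named animal.

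**Figure D2:**
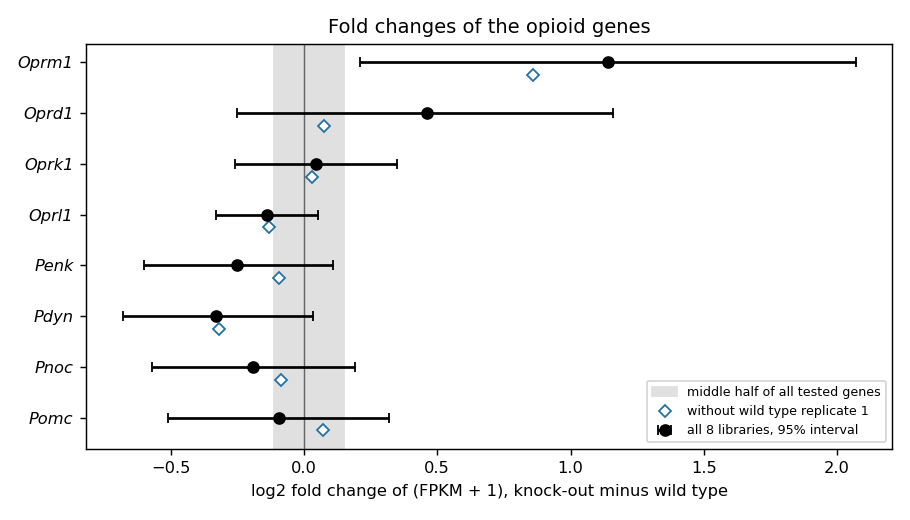
Log2 fold change (knock-out minus wild type, of FPKM + 1) of the 8 opioid genes with 95% intervals from all 8 libraries (filled circles) and without wild type replicate 1 (open diamonds), on a background of the interquartile range of all tested genes (grey). The Oprm1 interval, 0.21 to 2.07, is the only one of the 8 that does not include 0, and Oprd1 lies at 0.46 with all libraries and at 0.075 without that library.

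Oprm1 encodes the μ opioid receptor, the receptor of morphine and of β-endorphin and enkephalins. Its gene (ENSMUSG00000000766, chr10:6758506-7038198, plus strand) has 31 annotated transcripts of 242 to 2420 nt. Its level was 6.92, 5.65, 2.73 and 2.69 FPKM in knock-out replicates 1 to 4 and 0.313, 3.47, 2.42 and 0.534 FPKM in wild-type replicates 1 to 4. The highest and lowest libraries differed 22.1-fold, the 2 highest being knock-out and the 2 lowest wild type, while knock-out replicates 3 and 4 lay between wild-type replicates 2 and 3. The mean was 4.5 ± 2.13 FPKM in knock-out and 1.68 ± 1.52 FPKM in wild type (SD, n = 4 each). The log2 fold change was 1.14 ± 0.42 (SE; 95% interval 0.21 to 2.07) with a limma p of 0.0215 and an adjusted p of 0.62, and 1.56% of tested genes had a lower p. An exact two-sided permutation test over the 70 arrangements of the libraries gave p = 0.114, where the smallest possible p is 0.0286. Leaving out knock-out replicate 1 gave 0.94, knock-out replicate 2 gave 1.02, wild type replicate 1 gave 0.86 and wild type replicate 4 gave 0.93, and in each of these 4 fits the unadjusted limma call was lost.

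The spread of Oprm1 within each genotype was large beside that of the other receptors, with a coefficient of variation of 47.4% in knock-out and 90.2% in wild type. The low value of wild type replicate 4 was not shared by Oprd1, Oprk1 or Oprl1, which that library held at 3.64, 5.22 and 38.0 FPKM. Motor and cholinergic neuron markers (Chat, Slc5a7, Slc18a3, Isl1 and Mnx1) also varied between libraries. They summed to 42.6, 20.1, 7.85 and 25.8 FPKM in knock-out replicates 1 to 4 and to 8.79, 31.1, 27.7 and 8.53 FPKM in wild-type replicates 1 to 4, with none of the 5 genes at 0 in all libraries. Both wild-type libraries with little Oprm1 had low sums, and so did knock-out replicate 3, whose Oprm1 level was 2.73 FPKM; the part of these cells in the result was not tested. Exons of Oprm1 overlap exons of Ipcef1 on the opposite strand, and whether counting used strand is not given in the sources used here, so reads of the overlap cannot be assigned with certainty. Ipcef1 lay at 8.55, 9.22, 9.33 and 10.7 FPKM in knock-out replicates 1 to 4 and 6.48, 7.59, 6.34 and 11.8 FPKM in wild-type replicates 1 to 4. Its highest level was thus in wild type replicate 4, where Oprm1 was at 0.534 FPKM.

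Oprd1 encodes the δ opioid receptor, a receptor of enkephalins (ENSMUSG00000050511, chr4:132110726-132144486, minus strand, 1 annotated transcript of 4021 nt). It stood at 3.70, 3.80, 3.57 and 3.99 FPKM in knock-out replicates 1 to 4 and at 0.565, 3.59, 3.34 and 3.64 FPKM in wild-type replicates 1 to 4. With the exception of wild type replicate 1, the 7 libraries were close to each other. The mean was 3.77 ± 0.18 FPKM in knock-out, a coefficient of variation of 4.77%, and 2.78 ± 1.49 FPKM in wild type (SD, n = 4 each). The log2 fold change of 0.46 ± 0.32 (SE; 95% interval -0.25 to 1.16) had a limma p of 0.178 and an adjusted p of 0.622, and the exact permutation p was 0.0857. It was 0.075 without wild type replicate 1. Because Oprd1 has a single annotated transcript, its FPKM could be turned into estimated fragments, 597, 494, 588 and 487 in knock-out replicates 1 to 4 and 74, 558, 495 and 543 in wild-type replicates 1 to 4. These estimates rest on an assumed fragment length, and the low library held 74 of them where each of the other 7 held at least 487.

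Oprk1, the gene of the κ opioid receptor on which dynorphins act (ENSMUSG00000025905, chr1:5588466-5606131, plus strand, 5 annotated transcripts), measured 4.58, 4.06, 3.46 and 4.35 FPKM in knock-out replicates 1 to 4 and 3.81, 3.44, 3.50 and 5.22 FPKM in wild-type replicates 1 to 4. The highest library was wild type and the ranges lay over each other. Means were 4.11 ± 0.483 FPKM in knock-out and 3.99 ± 0.837 FPKM in wild type (SD, n = 4 each). A log2 fold change of 0.044 ± 0.14 (SE; 95% interval -0.26 to 0.35; limma p = 0.758, adjusted p = 0.906; exact permutation p = 0.771) was obtained. Its sign was not stable: it was -0.014 after quantile normalization, -0.013 after removal of the length trend, -0.0085 without wild type replicate 2 and -0.0016 without wild type replicate 3, though 0.03 without wild type replicate 1.

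Oprl1 encodes the nociceptin receptor (ENSMUSG00000027584, chr2:181715016-181720985, plus strand, 11 annotated transcripts). Its level was 33.5, 34.6, 40.5 and 32.9 FPKM in knock-out replicates 1 to 4 and 40.4, 39.8, 37.9 and 38.0 FPKM in wild-type replicates 1 to 4. Knock-out replicates 1, 2 and 4 lay below every wild-type library and knock-out replicate 3 lay above them all. Means were 35.4 ± 3.5 FPKM in knock-out and 39 ± 1.25 FPKM in wild type (SD, n = 4 each). With a log2 fold change of -0.14 ± 0.086 (SE; 95% interval -0.33 to 0.05), Oprl1 had a limma p of 0.132, an adjusted p of 0.62 and an exact permutation p of 0.143. The value was -0.21 without knock-out replicate 3, and -0.13 when wild type replicate 1 was left out.

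Penk encodes proenkephalin (ENSMUSG00000045573, chr4:4133531-4138819, minus strand, 2 annotated transcripts). It measured 135, 147, 179 and 165 FPKM in knock-out replicates 1 to 4 and 256, 177, 159 and 163 FPKM in wild-type replicates 1 to 4. The wild-type mean rested in part on wild type replicate 1; the other 3 wild-type libraries lay within the knock-out range. The means were 157 ± 19.5 FPKM in knock-out and 189 ± 45.4 FPKM in wild type (SD, n = 4 each). These gave a log2 fold change of -0.25 ± 0.16 (SE; 95% interval -0.60 to 0.11; limma p = 0.15, adjusted p = 0.62; exact permutation p = 0.286), and -0.093 without wild type replicate 1. A non-coding transcript on the opposite strand, A830012C17Rik, shares exon sequence with Penk but stayed at or below 0.0588 FPKM.

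Pdyn, the gene of prodynorphin (ENSMUSG00000027400, chr2:129686565-129699844, minus strand, 3 annotated transcripts), had the lowest p of the precursors. Its level was 20.4, 23.9, 32.3 and 21.9 FPKM in knock-out replicates 1 to 4 and 31.2, 38.9, 26.9 and 26.9 FPKM in wild-type replicates 1 to 4. Knock-out replicates 1, 2 and 4 lay below all wild-type libraries, and knock-out replicate 3 lay among them. Means were 24.6 ± 5.31 FPKM in knock-out and 31 ± 5.69 FPKM in wild type (SD, n = 4 each). The log2 fold change was -0.33 ± 0.16 (SE; 95% interval -0.68 to 0.03) with a limma p of 0.0714, an adjusted p of 0.62 and an exact permutation p of 0.143. Leaving out knock-out replicate 3 gave -0.46, leaving out wild type replicate 2 gave -0.21 and leaving out wild type replicate 1 gave -0.32.

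Pnoc encodes the precursor of nociceptin (ENSMUSG00000045731, chr14:65400673-65425472, minus strand, 2 annotated transcripts). It stood at 5.91, 8.21, 9.86 and 7.57 FPKM in knock-out replicates 1 to 4 and at 11.4, 10.1, 7.21 and 7.90 FPKM in wild-type replicates 1 to 4. The highest libraries were wild-type replicates 1 and 2 and the lowest was knock-out replicate 1, with the other 5 in between. The mean of 7.89 ± 1.64 FPKM in knock-out and 9.15 ± 1.94 FPKM in wild type (SD, n = 4 each) gave a log2 fold change of -0.19 ± 0.17 (SE; 95% interval -0.57 to 0.19; limma p = 0.29, adjusted p = 0.653; exact permutation p = 0.4). It was -0.076 without knock-out replicate 1, and -0.088 when wild type replicate 1 was left out.

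Pomc encodes proopiomelanocortin, the precursor of β-endorphin and of melanocortins, made mainly in the pituitary and hypothalamus (ENSMUSG00000020660, chr12:3954951-3960618 as deposited, with an end at 3960642 in the annotation, plus strand, 5 annotated transcripts). It had the lowest mean level of the members, at 1.93, 2.00, 2.60 and 1.74 FPKM in knock-out replicates 1 to 4 and 3.57, 2.16, 2.08 and 1.51 FPKM in wild-type replicates 1 to 4. Apart from wild type replicate 1 the libraries of the groups were interleaved. Means were 2.07 ± 0.374 FPKM in knock-out and 2.33 ± 0.875 FPKM in wild type (SD, n = 4 each). The log2 fold change was -0.092 ± 0.18 (SE; 95% interval -0.51 to 0.32; limma p = 0.632, adjusted p = 0.844; exact permutation p = 0.714) and its sign turned, to 0.072, without wild type replicate 1. Of 6 pituitary markers, Prl was at 0 in every library and 4 of the 6 averaged under 0.1 FPKM. The summed level, 24.2 to 26.6 FPKM in knock-out and 14.8 to 26.7 FPKM in wild type, came from Pcsk1 and Crhr1, which neurons also express.

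The mean proportions between precursors differed between genotypes by less than the SD of either group. Penk over Pdyn, a ratio of FPKM, averaged 6.47 ± 0.841 in knock-out and 6.18 ± 1.51 in wild type, and Penk over Pnoc 20.2 ± 2.56 in knock-out and 20.7 ± 2.27 in wild type (SD, n = 4 each). Pnoc over Oprl1, the nociceptin precursor against its receptor, averaged 0.222 ± 0.0308 in knock-out and 0.234 ± 0.0422 in wild type.

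Several other neuropeptide genes had a pattern over the libraries like that of the precursors. Among knock-out libraries, replicate 3 held the highest level of Penk, Pdyn, Pnoc and Pomc, and also of Sst (somatostatin), Cck (cholecystokinin), Tac1 (substance P), Npy (neuropeptide Y), Gal (galanin) and Npff (neuropeptide FF). Knock-out replicate 1 held the lowest knock-out level of Penk, Pdyn, Pnoc, Sst, Cck, Tac1 and Npy. Of all 8 libraries, wild type replicate 1 was the highest for Penk, Pnoc, Pomc, Sst, Cck, Tac1, Npy, Gal and Npff, whereas Pdyn was highest in wild type replicate 2. Calca, which encodes the calcitonin gene-related peptide, differed, with its highest level, 30.1 FPKM, in knock-out replicate 1, and so did Grp (gastrin-releasing peptide), highest of all 8 in knock-out replicate 4 at 21.2 FPKM. Sst, for example, measured 168, 204, 281 and 193 FPKM in knock-out replicates 1 to 4 and 330, 243, 224 and 222 FPKM in wild-type replicates 1 to 4, and its knock-out libraries had the same order as those of Pdyn. Genes with short transcripts as a whole had higher values in wild type replicate 1. After each library's trend with transcript length was removed, the log2 fold change was -0.12 for Penk, -0.26 for Pdyn, -0.11 for Pnoc and 0.05 for Pomc, beside -0.25, -0.33, -0.19 and -0.092 before, while Oprm1 was at 1.20 and Oprd1 at 0.43. That step used the longest annotated transcript of each gene, 2420 nt for Oprm1, although the 3 genes most like Oprm1 were far longer. Relative to the median of the other libraries, the log2 difference of Oprm1 was -1.51 and -1.28 in wild-type replicates 1 and 4. The median for genes of 6000 nt or more was -0.433 and 0.065 there. In knock-out replicates 1 and 2 the differences were 1.10 and 0.85 for Oprm1, and 0.143 and 0.102 for those genes. Whether 2420 nt is the right length for Oprm1 was not tested.

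**Figure D3:**
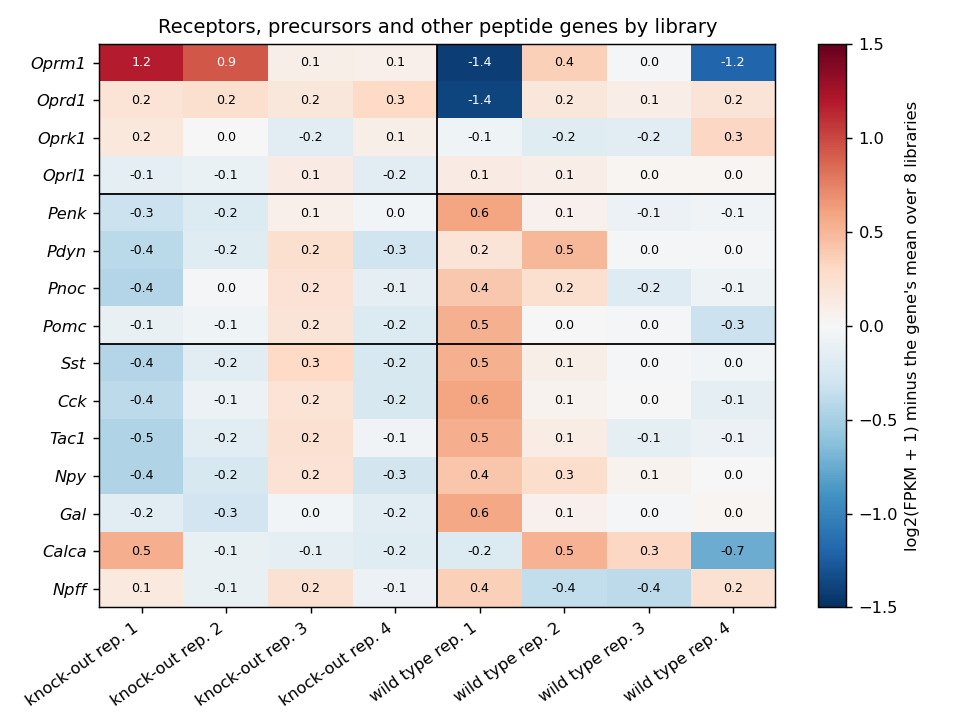
Log2(FPKM + 1) of the opioid receptor genes (top block), the precursor genes (middle block) and other peptide genes (bottom block) in each library, minus the gene's mean over the 8 libraries; knock-out libraries are on the left, wild-type libraries on the right, and red is above and blue below the mean. Wild type replicate 1 is red for Penk, Pnoc and Pomc together with Sst, Cck, Tac1, Npy and Gal, and deep blue for Oprm1 and Oprd1.

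Genes whose levels over the 8 libraries were most like each member's were sought among 10054 protein-coding genes with a mean of at least 5 FPKM; these r values describe 8 libraries that also differ in genotype and in their length trend. Oprm1 was most like Ubr4 (Pearson r = 0.978), Zfp871 (0.969) and Dync1h1 (0.968), whose longest transcripts, 15928, 10851 and 14342 nt, are all very long. For Oprd1, set apart by its 1 low library, the most like genes included Dpp8 (r = 0.999) and Eif4g1 (0.997). Oprk1 was most like Serpini1 (0.954), Zfp952 (0.943) and Gabrg1 (0.940), the last a subunit of GABA-A receptors. For Oprl1 the nearest were Eif4a2 (0.992), Arhgap1 (0.988) and Ap3m2 (0.986). Penk was followed most closely by Bex2 (0.992), Adprhl2 (0.991) and Elmod3 (0.987), and Pdyn by Rabepk (0.975), Syngr3 (0.974) and Tspyl4 (0.967). For Pnoc they were Acot1 (0.967), Idh2 (0.966) and Ndn (0.958), and for Pomc Ciao2a (0.976), Pdlim4 (0.974) and Sumf2 (0.971).

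The genes around the receptors and precursors were described in 6 lists, and with all libraries weighted equally no gene of them passed limma's adjusted threshold. With library weights, 1 processing gene, 1 breakdown gene, 3 desensitization genes and 2 effectors passed it, and 0 in the other lists. Of all 15061 tested genes, 1627 passed it with those weights. Unadjusted calls depended on single libraries: with 1 library left out at a time they numbered 0 to 4 among the processing genes, 0 to 2 among the breakdown genes, 0 to 3 among the G protein genes, 0 to 3 among the desensitization genes, 0 to 4 among the effectors and 0 to 3 among the other peptides. Over all genes such calls ran from 328 of 15044 without knock-out replicate 1 to 3154 of 15097 without wild type replicate 4. With library weights there were 4 unadjusted calls among the processing genes, 3 among the breakdown genes, 9 among the G protein genes, 5 among the desensitization genes, 4 among the effectors and 3 among the other peptides. The same setting called 5014 of all 15061 tested genes. The list of 13 processing genes, which mature peptide precursors, had 7 higher and 6 lower means in knock-out (53.1% and 46.9% of all genes). It had 0 genes at an unadjusted limma p under 0.05 (5.52% of all genes). Its median log2 fold change was 0.049, but -0.029 without wild type replicate 1 and -0.016 without knock-out replicate 3. Pcsk1, prohormone convertase 1, had 15.6, 16.5, 16.2 and 18 FPKM in knock-out replicates 1 to 4 and 5.71, 14.4, 11.7 and 18 FPKM in wild-type replicates 1 to 4 (log2 fold change 0.48 ± 0.27; errors of fold changes in these lists are SE). Its inhibitor Pcsk1n had 309 to 354 FPKM in knock-out libraries and 356 to 578 FPKM in wild-type libraries (-0.32 ± 0.15). Scg5, the chaperone of prohormone convertase 2, differed by -0.23 ± 0.12 and Chga (chromogranin A) by -0.14 ± 0.095. The convertase Pcsk2 (-0.026 ± 0.096) and the carboxypeptidase Cpe (0.058 ± 0.12), which complete the cleavage of enkephalin and dynorphin, lay near 0.

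The list drawn up for breakdown or scavenging of opioid peptides held 10 genes. In knock-out 9 had a higher and 1 a lower mean (53.1% and 46.9% of all genes). Its median log2 fold change was 0.071, and 1 gene was higher at an unadjusted limma p under 0.05 (3.69% of all genes). The median was 0.033 without knock-out replicate 1, 0.046 without wild type replicate 3 and 0.029 after removal of the length trend. That gene was Enpep, glutamyl aminopeptidase, at 3.97 to 4.48 FPKM in knock-out libraries and 3.23 to 3.75 FPKM in wild-type libraries (log2 fold change 0.23 ± 0.099, limma adjusted p = 0.62). Its groups did not overlap, which held for 3.03% of tested genes. The place of Enpep in the list does not make it an enzyme of opioid peptides. Mme (neprilysin, the main enkephalinase) had 10.5, 10.3, 8.3 and 9.71 FPKM in knock-out replicates 1 to 4 and 6.47, 7.59, 6.6 and 11.9 FPKM in wild-type replicates 1 to 4, a log2 fold change of 0.26 ± 0.17. The highest and the lowest Mme levels were both in wild-type libraries. Aminopeptidase N, encoded by Anpep, which removes the first residue of enkephalins, differed by 0.23 ± 0.19, Ece2 by 0.079 ± 0.099 and the scavenger receptor Ackr3 by 0.076 ± 0.15.

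The G protein list held 13 genes, for α subunits of the Gi/o class and for β and γ subunits. Of these, 4 had higher and 9 lower means in knock-out (53.1% and 46.9% of all genes). The median log2 fold change was -0.11, and 1 gene was lower at an unadjusted limma p under 0.05 (1.83% of all genes). This was Gng3, a neuronal γ subunit, at 75.1 to 83 FPKM in knock-out libraries and 84.3 to 123 FPKM in wild-type libraries (-0.30 ± 0.12, limma adjusted p = 0.62). Its groups did not overlap, which held for 3.03% of tested genes. Gng7 (-0.18 ± 0.097), Gng4 (-0.16 ± 0.087) and Gnb2 (-0.22 ± 0.13) had lower means as well. The α subunits differed in sign: Gnai1 (0.12 ± 0.085), Gnai3 (0.12 ± 0.10) and Gnao1 (0.091 ± 0.091) had higher means, and Gnai2 (-0.13 ± 0.091) and Gnaz (-0.076 ± 0.076) lower ones.

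Of 18 genes for receptor kinases, arrestins and regulators of G protein signalling, 17 were tested, with Rgs14 below the level filter. Means were higher in knock-out for 13 and lower for 4 (53.1% and 46.9% of all genes). The median log2 fold change was 0.073, and 1 gene was lower at an unadjusted limma p under 0.05 (1.83% of all genes). Leaving out wild type replicate 1 gave a median of 0.032, knock-out replicate 4 gave 0.047 and wild type replicate 4 gave 0.13. The gene called was Grk2, which phosphorylates activated opioid receptors, at 142, 146, 153 and 134 FPKM in knock-out replicates 1 to 4 and 157, 160, 163 and 172 FPKM in wild-type replicates 1 to 4. Every knock-out library lay below every wild-type library, and groups without overlap held for 3.03% of tested genes. The log2 fold change was -0.18 ± 0.079 (limma adjusted p = 0.62). Arrb2, the arrestin that binds phosphorylated μ receptors, had a log2 fold change of -0.023 ± 0.099. Rgs9 differed by 0.22 ± 0.12, Rgs17 by 0.41 ± 0.25 and the RGS-anchoring gene Rgs7bp by 0.54 ± 0.28.

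The effector list of potassium channels, presynaptic calcium channels and adenylyl cyclases had 13 of 14 genes tested (not Kcnj5). In knock-out 12 had a higher and 1 a lower mean (53.1% and 46.9% of all genes), with a median log2 fold change of 0.24. The median was 0.058 without wild type replicate 1 and 0.022 after each library's trend with transcript length was removed. Cacna1b, the N-type calcium channel closed by opioids at afferent terminals, had 26.3, 27.6, 26.9 and 27.1 FPKM in knock-out replicates 1 to 4 and 17.5, 24.1, 22.7 and 26 FPKM in wild-type replicates 1 to 4. These groups did not overlap, which held for 3.03% of tested genes. The log2 fold change of 0.26 ± 0.11 (limma adjusted p = 0.62) was the 1 unadjusted call of the list, higher in knock-out (3.69% of all genes). The list had 0 such calls after quantile normalization, after removal of the length trend, without a level filter and without limma's trend and robust settings. It had 1 with a pseudocount of 0.1 or a minimum mean of 5 FPKM, and 2 with a replicate block or median-ratio rescaling. Kcnj6, a subunit of the potassium channels opened by opioids, had 5.23, 4.67, 5.98 and 4.64 FPKM in knock-out replicates 1 to 4 and 0.499, 5.78, 3.74 and 3.14 FPKM in wild-type replicates 1 to 4. Its low library was the one in which Oprd1 and Oprm1 were also lowest, and its log2 fold change was 0.70 ± 0.38. Its partner Kcnj3 differed by -0.0016 ± 0.10, Adcy1 by 0.38 ± 0.20 and Cacna1e by 0.30 ± 0.13.

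The list of other peptides and their receptors had 7 of 9 genes tested (not Npffr1 and Npffr2). In knock-out 2 had higher and 5 lower means (53.1% and 46.9% of all genes). The median log2 fold change was -0.25, and -0.10 without wild type replicate 1. Npy, made by inhibitory dorsal horn neurons, had 28.6, 33.2, 46.1 and 32.4 FPKM in knock-out replicates 1 to 4 and 52.7, 47.5, 41 and 39.7 FPKM in wild-type replicates 1 to 4. Knock-out replicate 3 lay among the wild-type libraries and the other 3 below them (log2 fold change -0.37 ± 0.15, limma adjusted p = 0.62). Gal had 8.11 to 9.8 FPKM in knock-out libraries and 9.87 to 15.6 FPKM in wild-type libraries (-0.33 ± 0.14, limma adjusted p = 0.62). Npy and Gal were the 2 genes of the list with an unadjusted limma p under 0.05, both lower in knock-out (1.83% of all genes). Sst (-0.28 ± 0.18) and Cck (-0.25 ± 0.17), whose peptide is known to oppose opioid analgesia, also had lower means.

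**Figure D4:**
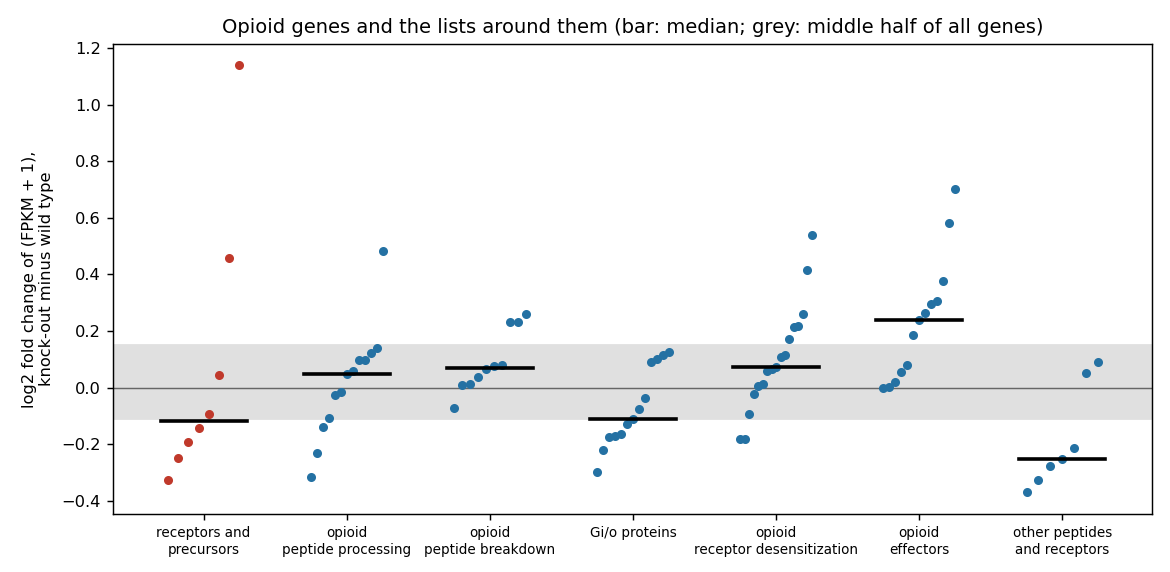
Log2 fold change (knock-out minus wild type, of FPKM + 1) of each tested gene in the opioid list (red) and in the 6 lists around it (blue), with a bar at each list's median and the interquartile range of all tested genes in grey. The bar of the effector list is at 0.24 and that of the list of other peptides at -0.25; the grey band is the spread of single genes, not of list medians.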

How the data were processed

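The authors deposited FPKM per gene, 1 table per library, for 8 polyA RNA-seq libraries of the mouse dorsal horn. The tools named in the submitters' processing notes are HISAT2, Cufflinks and SAMtools; their versions and options and the use of strand were not given in the sources used here. Those notes list the build mm8, but the deposited loci equalled GRCm38 (GENCODE M21) for 45128 genes, 91.5% of those with a symbol, and for 7 of the 8 opioid genes, so coordinates are on GRCm38, numbered from 1. FPKM are already divided by transcript length and library total, so a shift in a few abundant genes moves all others, and a gene with many isoforms, such as Oprm1, depends on how isoforms were apportioned.

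No count model was fitted. Depth was estimated from the steps of low FPKM values in genes with 1 annotated transcript of at least 3000 nt and an assumed fragment length of 200 nt; 95.5% to 96.7% of these values were whole fragments to within 0.15, where 30% would be by chance. The depth estimate covers counting error only.

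Genotypes were compared with limma 3.58.1 in R 4.3.3 (two-sided; lmFit and eBayes, with its trend and robust settings) on log2(FPKM + 1) for the 15061 genes with a mean of at least 1 FPKM, with Benjamini-Hochberg adjustment over all of them and a threshold of 0.05; the code was tested on simulated data. Single members were also tested by exact permutation of the libraries. Named genes were the members, up to 4 genes of lowest p per list plus its main opioid-pathway genes, and the 3 genes most like each member (1 of them is not reported here). Members, lists and tests were chosen with earlier results of these data known.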

Additional observations from a re-analysis of the deposited data

Results flagged for a closer look

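A library was flagged where its gap to the nearest library of its genotype exceeded Dixon's 95% critical value of that group's range. This held in 7 of 78 groups of 4 over 39 genes, and chance flags about 1 in 20.

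Among the members, Oprd1 was flagged in wild type replicate 1, at 0.565 FPKM where the other wild-type libraries had 3.34 to 3.64 FPKM. The same library was flagged high for Pcsk1n, at 578 FPKM beside 356 to 386 FPKM, for Gnb2, at 201 FPKM beside 135 to 139 FPKM, and for Gal, at 15.6 FPKM beside 9.87 to 10.6 FPKM. This is the library in which genes with short transcripts were high and genes with long transcripts low. Relative to the median of the other libraries, genes of 3000 to 6000 nt had a median log2 difference of -0.113 in it. That of Oprd1 (4021 nt) was -1.57. After removal of each library's length trend the Oprd1 log2 fold change was 0.43, beside 0.46 before. The part of that trend in the flagged values themselves was not tested.

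Knock-out replicate 3 was flagged high for Gnb2, at 138 FPKM beside 125 to 127 FPKM, and low for Rgs7bp, at 16.1 FPKM beside 29.5 to 31.3 FPKM, and for Rgs17, at 21.8 FPKM beside 35.8 to 39.3 FPKM.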

How the results depend on the processing

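Over 104 combinations of a member and an alternative that can move a fold change, it kept its direction in 98 and reversed in 6. Over all 132 combinations, in 0 did a member pass limma's adjusted threshold; the lowest adjusted p was 0.0865, for Oprm1 with library weights. The reversals were Oprk1 after quantile normalization (-0.014), after removal of each library's length trend (-0.013), without wild type replicate 2 (-0.0085) and without wild type replicate 3 (-0.0016), and Pomc after removal of the length trend (0.05) and without wild type replicate 1 (0.072); the cause was not tested. Leaving out 1 library at a time gave log2 fold changes of 0.86 to 1.45 for Oprm1, 0.075 to 0.60 for Oprd1, -0.0085 to 0.15 for Oprk1, -0.21 to -0.11 for Oprl1, -0.32 to -0.093 for Penk, -0.46 to -0.21 for Pdyn, -0.29 to -0.076 for Pnoc and -0.22 to 0.072 for Pomc. With a pseudocount of 0.1 the Oprm1 value was 1.77. A minimum mean of 5 FPKM left no value for Oprm1, Oprd1, Oprk1 and Pomc.

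Over all genes, 0 passed the adjusted limma threshold and 831 had an unadjusted p under 0.05 (555 higher, 276 lower in knock-out). Library weights gave 1627 genes past the adjusted threshold and 5014 at the unadjusted one; the weights ran from 0.153 for wild type replicate 1 to 5.09 for wild type replicate 3. No filter gave 1396 unadjusted calls of 31319 genes tested, beside 831 of 15061 in the main fit. Leaving out 1 library gave 0 to 1 adjusted calls and 328 to 3154 unadjusted ones: 328 without knock-out replicate 1, 354 without knock-out replicate 2, 1439 without knock-out replicate 3, 423 without knock-out replicate 4, 574 to 718 without wild-type replicates 1 to 3, and 3154 when wild type replicate 4 was left out. Quantile normalization gave 419 higher and 450 lower, library weights 2521 and 2493, and removal of the length trend 368 and 324. Same-numbered libraries had correlations of -0.108, -0.055, 0.024 and 0.144 in their deviations, and differently numbered ones -0.417 to 0.228. The labels do not say whether the numbers pair samples, and these correlations cannot settle it. With the replicate block there were 0 adjusted and 790 unadjusted calls. In this balanced design the block cannot move a fold change, so Oprm1 is at 1.14 by construction. In the main fit no gene under a mean of 1 FPKM was tested.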
